A study of Mus musculus with 12 samples.

Results

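Whole-lung RNA from mice given L-NAME with a high-fat diet for 5 weeks was compared with that of 0-week control mice, gene by gene. The comparison uses 8 of the 12 bulk libraries of the series, 4 in each group, and each library came from a mouse with its own number in the labels. All mice carried the genotype label C57BL6/J. The treated mice drank water with 0.5 g/L L-NAME, an inhibitor of nitric oxide synthase, and ate a diet with 60% lipid. The sources used here do not give the diet of the 0-week mice, or the age and sex of any mouse. Lungs were flash frozen on removal. The other 4 libraries, from mice treated for 2 weeks, are given beside the main values and share these controls. There was no untreated group at 5 weeks, so treatment, time on study and age cannot be told apart, nor can L-NAME and the diet, which were always given together.

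L-NAME with a fat-rich diet is used in mice to model heart failure with preserved ejection fraction, in which the heart fills poorly and pressure rises in the lung's vessels. Nitric oxide relaxes vascular smooth muscle, and its synthesis from arginine is what L-NAME blocks. Lung tissue taken whole holds the alveolar and airway epithelium, a dense capillary bed, fibroblasts and their matrix, and many leukocytes, some resident and some lodged in the capillaries with the blood. IL-1β, on which the study centres, is a cytokine that myeloid cells make as a precursor and release after inflammasome activation.

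Values are CPM, reads per gene scaled to a common library total, as deposited, and tests were run on log2(CPM + 1), a scale that understates differences of genes with few reads. Between 25950000 and 34000000 reads were assigned to genes in each library, as read from the step between low values. The defining genes of lung were abundant in both groups. Sftpc, the surfactant gene of alveolar type 2 cells, lay at 9794 to 12546 CPM in the controls and 12135 to 18046 CPM after 5 weeks. Ager, of alveolar type 1 cells, lay at 1459 to 2035 and 1836 to 2132 CPM, and Scgb1a1, of airway club cells, at 19632 to 31401 and 17941 to 24525 CPM.

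Among these 8 libraries, 2 stood apart on the leading principal components, 5-week replicate 3 on the first (34.4% of the variance) and control replicate 2 on the second (27.3%). Control replicate 2 held transcripts of other tissues. The 17 skeletal muscle genes summed to 649 CPM there, against 43.6 to 67.1 CPM in the other controls and 47.5 to 80.2 CPM after 5 weeks. Its adipocyte genes summed to 3568 CPM, against 203 to 339 and 197 to 456 CPM. It was also rich in plasma cell transcripts, with Jchain, the joining chain of secreted antibodies, at 4.06, 169, 2.30 and 4.70 CPM in control replicates 1 to 4. In 5-week replicate 3, red cell genes summed to 16377 CPM, against 1629 to 4612 CPM in the other 5-week libraries. Of the 2-week libraries, replicate 3 stood apart with skeletal muscle transcripts. For lists with a median log2 difference of at least 0.1 in size, the median without these 3 libraries is given where it differs by more than 1.5 times.

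No gene passed the test over the whole table. Of 15562 genes tested in limma with Benjamini-Hochberg adjustment, 0 had an adjusted p under 0.05 (0% called), and the lowest adjusted p was 0.191. At an unadjusted p under 0.05 stood 1343 genes (8.63%), 909 higher (5.84%) and 434 lower (2.79%) after 5 weeks. This split moved to 650 higher and 634 lower under median-of-ratios scaling and to 686 and 575 under quantile normalization. For 779 genes (5.01%) the 4 treated libraries were all above (568 genes, 3.65%) or all below (211 genes, 1.36%) every control. The split of these 779, with 72.9% above, moved to 53.1% of 733 genes under median-of-ratios scaling and to 55.9% of 694 under quantile normalization. Over all tested genes the median log2 difference was 0.02, and 8565 (55%) lay above 0. The values that follow are therefore measured levels and differences, none of them past the threshold. Groups are called separated where their libraries do not overlap. Counts of separated list members over all 8 libraries are to be read against 3.65% of all tested genes upward and 1.36% downward.

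Of the genes with separated groups and the smallest p, Hes2 stood first among those higher after 5 weeks. Hes2 encodes a transcriptional repressor of the Hairy and enhancer of split family (ENSMUSG00000028940, chromosome 4, 152243324 to 152246926 in the deposited table). It lay at 3.67, 2.74, 2.27 and 2.18 CPM in the controls and 5.72, 6.68, 6.87 and 5.13 CPM after 5 weeks, a log2 difference of 0.94 ± 0.14 (SE). The highest control thus stayed below the lowest treated library, and limma gave an adjusted p of 0.191. Igfbp2, which encodes an insulin-like growth factor binding protein found in mature alveolar type 1 cells (ENSMUSG00000039323, chromosome 1, 72863662 to 72891633), lay at 196, 209, 303 and 221 CPM in the controls and 425, 345, 518 and 365 CPM after 5 weeks. Its mean was 1.78 times that of the controls, with a log2 difference of 0.83 ± 0.15. Acoxl, related to the peroxisomal acyl-CoA oxidases, lay at 32.9, 27.6, 23.98 and 26.4 CPM and then at 45.6, 38.01, 43.2 and 39.9 CPM. For Igfbp2 and Acoxl the 4 treated libraries stayed above every control, by narrow margins.

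Several of the 15 leading higher genes are genes of immune cells. The receptor gene Cd69, an early activation marker of lymphocytes that also retains them in tissue, lay at 3.57, 3.54, 3.93 and 4.32 CPM in the controls and 8.61, 7.54, 14.4 and 9.43 CPM after 5 weeks (1.15 ± 0.24, log2, SE). S1pr5, the sphingosine 1-phosphate receptor that NK cells use to leave tissues (ENSMUSG00000045087, chromosome 9, 21154208 to 21159739), lay at 3.15, 5.07, 2.12 and 2.998 CPM and 7.03, 8.40, 7.28 and 6.91 CPM (0.995 ± 0.21). The related receptor gene of leukocytes, S1pr4, differed less, at 26.2 to 30.7 CPM in the controls and 34.7 to 41.1 CPM after 5 weeks. Cd177, a neutrophil surface glycoprotein gene, lay at 4.03, 3.66, 3.59 and 2.56 CPM and 6.03, 5.67, 9.43 and 6.12 CPM, and the NK cell receptor gene Klrc2 at 0.995 to 2.21 and 2.88 to 4.13 CPM. The NK granule gene Nkg7 belongs to the same 15 and is described with its list. The others were Bex2 (log2 difference 0.82 ± 0.14), the amino acid transporter gene Slc6a20a (0.60 ± 0.10), the nuclear envelope gene Nrm (0.57 ± 0.11), the neuritin gene Nrn1 (0.70 ± 0.14), the antiviral factor gene Trim5 (0.45 ± 0.09) and the protease inhibitor gene Spink5 (0.76 ± 0.16). Limma's adjusted p for the 15 lay between 0.191 and 0.328.

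Among the 15 leading lower genes the largest differences were those of Nr4a3, Fkbp5, Rgs16 and Eln. Nr4a3, an orphan nuclear receptor gene of the immediate early class (ENSMUSG00000028341, chromosome 4, 48045153 to 48086447), lay at 19.3, 31.1, 26.2 and 35.3 CPM in the controls and 6.88, 12.03, 2.81 and 11.2 CPM after 5 weeks. The control mean was 3.41 times the treated mean, with a log2 difference of -1.77 ± 0.35 (SE). Slc26a4, the gene of the anion exchanger pendrin, lay at 3.38, 3.28, 3.89 and 3.50 CPM and 1.65, 1.40, 1.34 and 2.34 CPM (-0.76 ± 0.14), a low level in both groups. In both genes every treated library was well below the lowest control. Itih4, a plasma protein gene, lay at 53.8 to 99.2 and 37.9 to 42.7 CPM, and Thbs3, a thrombospondin of the matrix, at 67.7 to 76.8 and 37.2 to 55.1 CPM. The maternally expressed non-coding RNA Meg3 lay at 6.35, 8.77, 8.47 and 5.46 CPM in the controls and 3.90, 4.06, 2.75 and 3.84 CPM after 5 weeks. Begain, which lies near Meg3 on chromosome 12, stood at -0.61 ± 0.14, and Dnm3os, a non-coding RNA of mesenchyme, at -0.67 ± 0.13. Rhou, a small GTPase gene, stood at -0.49 ± 0.10, the signalling regulator gene Rgs16 at -0.87 ± 0.20 and the vesicle GTPase gene Rab3c at -0.64 ± 0.15. Mt2, Lox, Fkbp5, Map3k6 and Eln are described with their groups. The adjusted p of these 15 in limma lay between 0.215 and 0.328.

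**Figure D1:**
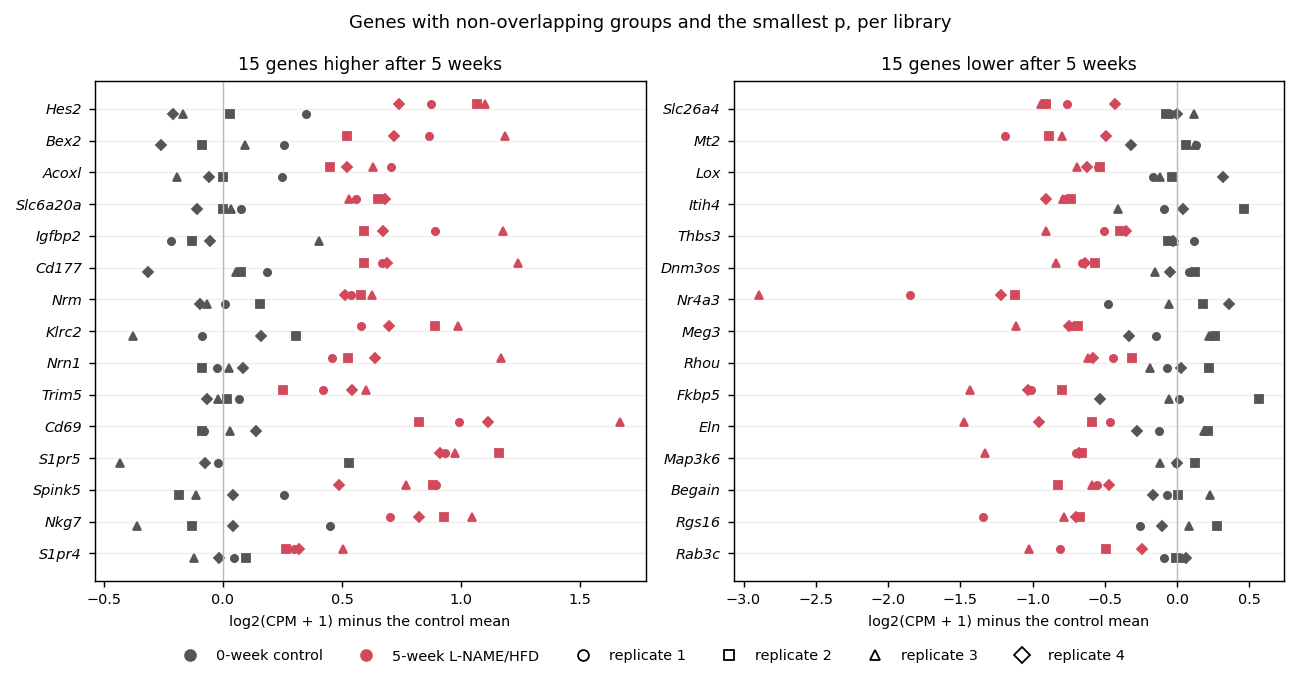
Each point is 1 library, placed by its log2(CPM + 1) minus the mean of the 4 controls (x axis), for the 15 genes per direction with separated groups and the smallest p (y axis). Points of the 4 controls scatter around 0 and those of the 4 treated libraries lie wholly to one side, nearly 1 log2 unit away for Hes2 and between 1 and 3 units below for Nr4a3.

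NK cell genes were the list with the most separated members. NK cells are cytotoxic innate lymphocytes that kill with perforin and granzymes, and the lung holds many of them within its capillaries. All 19 tested members stood higher after 5 weeks, 14 of them separated and 0 in the lower direction, against 3.65% and 1.36% of all tested genes. Their median log2 difference was 0.60, against 0.02 over all genes. The mean level of the list was 2.48, 2.21, 1.85 and 2.29 in control replicates 1 to 4 and 2.61, 2.83, 3.01 and 2.79 in 5-week replicates 1 to 4 (mean log2(CPM + 1)), so that every treated library lay above every control. The 2-week libraries lay at 1.93 to 2.71, overlapping both groups. No member passed the test.

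Nkg7, which encodes a protein of cytotoxic granules (ENSMUSG00000004612, chromosome 7, 43086497 to 43087673), lay at 8.59, 5.41, 4.46 and 6.22 CPM in the controls and 10.4, 12.3, 13.5 and 11.4 CPM after 5 weeks. Gzma, the gene of granzyme A, lay at 20.02, 13.8, 12.8 and 15.2 CPM and 24.2, 26.5, 48.99 and 27.7 CPM. Both were separated, with treated over control means of 1.93 for Nkg7 and 2.06 for Gzma. Ccl5, a chemokine that NK and memory T cells store, lay at 11.03 to 18.3 CPM in the controls and 24.1 to 29.7 CPM after 5 weeks. The receptor genes Klra8 and Klrk1, which encode Ly49H and NKG2D, had log2 differences of 0.78 ± 0.19 and 0.73 ± 0.20 (SE). Il2rb, the shared receptor chain for IL-2 and IL-15, overlapped between groups (0.49 ± 0.26). In limma the adjusted p of these 6 genes lay between 0.328 and 0.629.

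Nonclassical monocytes patrol the inner surface of capillaries and carry the Fc receptor FcγRIV. Of 14 genes fixed for them 12 stood higher after 5 weeks and 7 were separated, all in the higher direction (against 3.65% of all tested genes), with a median log2 difference of 0.67. The list level was 4.94, 4.90, 4.36 and 4.67 in the controls and 5.25, 5.09, 5.35 and 5.33 after 5 weeks, separated, and 4.39 to 5.04 at 2 weeks. Treml4, a receptor gene of these cells, lay at 5.08, 4.46, 2.53 and 4.45 CPM in the controls and 9.41, 6.21, 9.15 and 8.44 CPM after 5 weeks. Fcgr4, the gene of FcγRIV, lay at 6.82, 5.71, 3.74 and 4.76 CPM and 8.34, 9.26, 10.6 and 11.04 CPM. For these 2 genes the lowest treated library exceeded the highest control. Adgre4, an adhesion receptor gene, differed by 1.05 ± 0.30 and the transcription factor gene Pou2f2 by 0.69 ± 0.18 (log2, SE). Members that other lung cells also express varied. Ear2, which is also on the alveolar macrophage list, had a log2 difference of 0.61. Ace, abundant in capillary endothelium, stood at -0.15 ± 0.10, and Csf1r, common to all macrophages, at 0.12 ± 0.12.

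Other blood leukocyte lists stood higher on average, with overlap. All 19 B cell genes were higher, 8 of them separated (against 3.65% of all tested genes), with a median of 0.73. Without the 3 libraries that stand apart 17 were separated, in a setting in which 8.86% of all genes were separated upward, and the median was 0.67. Cd79a, a signalling chain of the B cell receptor, lay at 40.8, 42.7, 28.2 and 27.1 CPM in the controls and 59.1, 51.3, 121 and 57.2 CPM after 5 weeks, with 5-week replicate 3 well above the other treated libraries. Fcer2a, the low-affinity IgE receptor of mature B cells, lay at 7.14 to 11.3 and 15.1 to 29.5 CPM. Ighm, the heavy chain of IgM, overlapped, at 111, 1049, 78.7 and 92.9 CPM in the controls, where replicate 2 stands apart, and 145, 157, 279 and 148 CPM after 5 weeks. Of 21 T cell genes 19 were higher, with a median of 0.34, or 0.20 without the 3 libraries. Of the 21, 1 was separated, upward, near the 3.65% of all tested genes. That gene was the kinase gene Lck (0.56 ± 0.21).

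Neutrophil genes had a median of 0.77, with 15 of 16 higher and 2 separated upward (against 3.65% of all tested genes). The list level was 3.75, 2.98, 3.02 and 3.10 in the controls and 3.72, 3.43, 4.29 and 4.15 after 5 weeks, which overlap through control replicate 1. S100a9, one chain of calprotectin, showed the same overlap, at 65.4, 17.3, 27.9 and 19.8 CPM and 53.2, 32.7, 138 and 89.8 CPM. Retnlg, a resistin-like gene of mature neutrophils, stood at 11.96, 3.39, 4.61 and 4.61 CPM in the controls and 14.4, 8.69, 29.2 and 18.3 CPM after 5 weeks. Lcn2, which airway and alveolar epithelium also make, was the 1 member separated downward, at 89.7 to 133 and 75.6 to 88.6 CPM. Classical monocyte genes had a median of 0.49, or 0.34 without the 3 libraries. Of the 14 members 12 were higher and 3 separated upward, against 3.65% of all tested genes. Ly6c2, the surface marker of inflammatory monocytes, lay at 6.89 to 15.5 and 14.9 to 25.7 CPM, with overlap.

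Transcripts of red cells and platelets stood higher along with these leukocyte lists. All 10 tested red cell genes were higher, 1 of them separated (against 3.65% of all tested genes). Their median was 1.26, or 0.64 without the 3 libraries. Their level lay at 5.98, 5.70, 5.63 and 6.28 in the controls and 6.82, 5.95, 8.06 and 6.72 after 5 weeks. Alas2, the haem synthesis enzyme of erythroid cells, lay at 10.5, 8.16, 9.08 and 18.7 CPM and 30.4, 12.1, 89.7 and 31.02 CPM, so that 5-week replicate 2 lay among the controls. Of 14 platelet genes 13 were higher and 0 separated (median 0.49, or 0.22 without the 3 libraries). The platelet chemokine gene Ppbp lay at 13.2, 5.79, 7.33 and 4.99 CPM in the controls and 12.2, 11.8, 25.2 and 12.2 CPM after 5 weeks. The part of blood content in the leukocyte differences was not tested. Among the treated libraries, 5-week replicate 2 was lowest for red cell (5.95), platelet (2.58) and T cell genes (2.69). It was also lowest for nonclassical monocyte (5.09), classical monocyte (4.91) and neutrophil genes (3.43), but not for NK or B cell genes. Its red cell level lay within the range of the controls, and its NK and nonclassical monocyte levels lay above every control. In bulk RNA, a different number of cells of a type and a different amount of RNA per cell cannot be told apart.

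Resident myeloid cells did not share this direction throughout. Alveolar macrophage genes had 15 of 20 members higher, 0 separated, and a median of 0.21 that became -0.03 without control replicate 3. Interstitial macrophage genes had 13 of 18 members lower, 0 separated, and a median of -0.26, or -0.09 without control replicate 2 and -0.08 without the 3 libraries. Cd163, the haemoglobin scavenger receptor of perivascular macrophages, lay at 19.8, 36.8, 12.96 and 18.6 CPM in the controls and 13.4, 15.004, 8.24 and 11.6 CPM after 5 weeks. The hyaluronan receptor gene Lyve1 lay at 252, 389, 382 and 465 CPM and 211, 287, 182 and 273 CPM. Control replicate 3 for Cd163 and control replicate 1 for Lyve1 lay within the treated range. Among dendritic cell genes the homing receptor gene Ccr7, which lymphocytes also express, was separated upward at 13.1 to 17.5 and 24.1 to 35.9 CPM. The chemokine gene Ccl22 was separated downward at 13.6 to 18.4 and 8.93 to 11.6 CPM. The median of the 18 was 0.03.

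**Figure D2:**
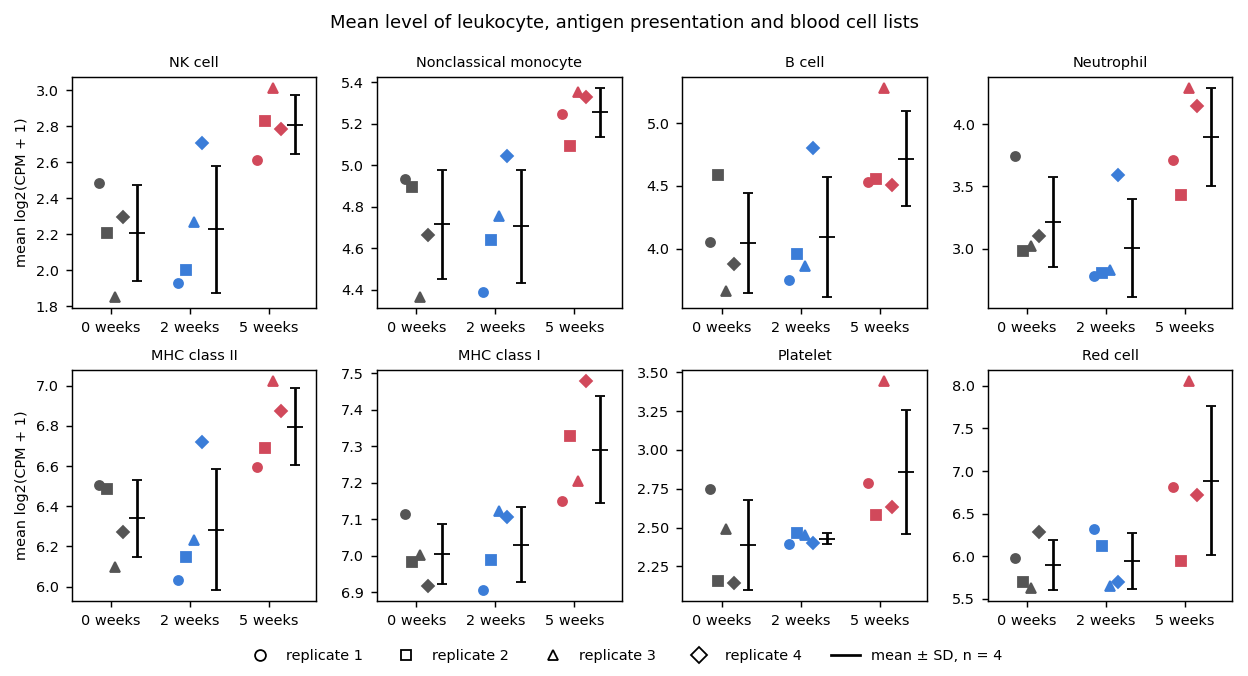
Each panel shows 1 gene list, with the mean log2(CPM + 1) of its tested members (y axis) per library at 0, 2 and 5 weeks (x axis), and bars for the mean ± SD of 4 mice. The 5-week libraries lie above all controls for NK cells, nonclassical monocytes and both MHC classes, and overlap with them for B cells, neutrophils, platelets and red cells, where 5-week replicate 3 (triangle) is highest or near it.

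Genes of antigen presentation formed the other immune group that stood higher throughout. MHC class II molecules present peptides on B cells, dendritic cells and macrophages, and class I molecules, with the immunoproteasome and the TAP transporter, do so on nearly all cells. The promoters of many MHC genes carry a Y box, the inverted CCAAT motif bound by NF-Y. CTGATTGG, on either strand, occurs in 3.83% of the 32851 RefSeq windows of 250 bases before a gene's start (GRCm38.p6). The 32851 windows belong to 27025 genes, so a count of genes is not on the same scale as this share of windows. Of 7 tested class II genes with a window 3 held the motif in any of their windows, as did 6 of 15 class I presentation genes. The windows of 3 genes with values given here show its place near the start, in capitals, 5′ to 3′ on the gene's strand. H2-Oa is at chr17:34092129-34092378 (plus strand), H2-Aa at chr17:34287824-34288073 (minus strand) and H2-D1 at chr17:35262844-35263093 (plus strand). In H2-D1 the marked letters are the reverse complement, CCAATCAG. On that gene's strand they read as a direct CCAAT, not as the inverted motif that defines a Y box. The search on either strand counts both orientations, so the counts above are not of Y boxes alone. A match describes the letters and is no evidence of binding in these lungs.
H2-Oa: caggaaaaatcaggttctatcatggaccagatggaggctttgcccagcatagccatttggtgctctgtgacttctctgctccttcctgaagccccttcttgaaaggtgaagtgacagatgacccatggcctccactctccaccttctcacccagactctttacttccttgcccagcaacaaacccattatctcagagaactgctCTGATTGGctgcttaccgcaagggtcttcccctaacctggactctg
H2-Aa: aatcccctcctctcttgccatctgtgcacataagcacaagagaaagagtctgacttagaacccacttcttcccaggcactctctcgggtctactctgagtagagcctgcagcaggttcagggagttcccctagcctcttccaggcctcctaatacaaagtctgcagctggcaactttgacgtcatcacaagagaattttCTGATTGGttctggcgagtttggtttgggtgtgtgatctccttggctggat
H2-D1: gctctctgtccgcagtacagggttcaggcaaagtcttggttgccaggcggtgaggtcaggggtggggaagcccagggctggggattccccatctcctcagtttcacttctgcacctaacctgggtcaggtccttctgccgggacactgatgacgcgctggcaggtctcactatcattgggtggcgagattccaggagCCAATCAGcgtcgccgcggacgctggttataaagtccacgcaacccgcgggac

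All 10 tested class II genes stood higher after 5 weeks, 3 of them separated (against 3.65% of all tested genes), with a median log2 difference of 0.34. The list level was 6.50, 6.49, 6.10 and 6.27 in the controls and 6.59, 6.69, 7.02 and 6.88 after 5 weeks, separated by a narrow gap, and 6.03 to 6.72 at 2 weeks. Cd74, the invariant chain that guides class II molecules to peptide, lay at 1426, 1340.4, 1257 and 1256 CPM in the controls and 1437, 1571, 1746 and 1926 CPM after 5 weeks. H2-Oa, one chain of the peptide editor DO of B cells, lay at 5.77, 5.03, 4.34 and 4.42 CPM and 7.45, 7.72, 14.7 and 7.998 CPM, and its partner gene H2-Ob at 14.96 to 22.7 and 26.3 to 55.7 CPM. These 3 were the separated members. The classical chain genes H2-Aa (0.31 ± 0.13, log2, SE) and H2-Ab1 (0.35 ± 0.13) overlapped, since 5-week replicate 1 lay within the controls. Limma's adjusted p for these 5 lay between 0.471 and 0.553.

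Of the class I presentation genes all 17 were higher and 5 were separated (against 3.65% of all tested genes), with a median of 0.29. The list level was 7.11, 6.98, 7.003 and 6.92 in the controls and 7.15, 7.33, 7.20 and 7.48 after 5 weeks. H2-D1, a classical class I heavy chain gene, lay at 1423, 1356, 1357 and 1209.8 CPM in the controls and 1479, 1546, 1602 and 1734 CPM after 5 weeks, and H2-K1, the other, at 949.5 to 1087 and 1143 to 1395 CPM. Each was separated by a small step, with a treated mean 1.19 and 1.19 times the control mean. The counting is not stated to separate near-identical class I copies, so each is uncertain on its own. The immunoproteasome gene Psmb10 was separated (51.05 to 68.03 and 70.3 to 84.4 CPM), whereas Psmb9 (0.48 ± 0.12), the peptide transporter gene Tap1 (0.36 ± 0.11) and the shared light chain gene B2m (0.22 ± 0.10) overlapped. Type I interferon-stimulated genes had 24 of 30 members higher. Their median was 0.12, or 0.04 without control replicate 3. Of these 30, 1 was separated, upward, against 3.65% of all tested genes.

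Il1b (ENSMUSG00000027398, chromosome 2, 129206490 to 129213059) lay at 17.7, 7.81, 12.01 and 9.81 CPM in control replicates 1 to 4 and at 25.1, 13.2, 35.5 and 39.2 CPM in 5-week replicates 1 to 4. The single overlap was 5-week replicate 2 below control replicate 1. The log2 difference was 1.14 ± 0.39 (SE), with an exact two-sided permutation p of 0.0571 where 0.0286 is the smallest that 4 against 4 libraries allow. Leaving out 1 library gave a log2 difference between 0.95, without 5-week replicate 4, and 1.45, without 5-week replicate 2, with exact permutation p of 0.114 and 0.0286. Without control replicate 2 and 5-week replicate 3, which stand apart, it was 0.83 and the exact permutation p 0.2. At 2 weeks Il1b lay at 4.33 to 18.3 CPM.

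Of 25 IL-1 family and inflammasome genes 19 were higher and 3 separated upward (against 3.65% of all tested genes), with a median of 0.11. The inhibitor of the cytokine stood higher too. Il1rn, the gene of the antagonist that occupies the IL-1 receptor, lay at 8.29, 7.85, 4.99 and 9.21 CPM in the controls and 12.02, 10.4, 13.4 and 16.6 CPM after 5 weeks. Nlrp3, the sensor of the canonical inflammasome, lay at 5.34, 3.16, 2.46 and 4.64 CPM and 6.26, 5.46, 6.03 and 9.17 CPM, and Il18rap, a chain of the IL-18 receptor on NK and T cells, at 3.78 to 6.46 and 6.84 to 10.02 CPM. These 3 were the separated members. Gsdmd, the pore protein that lets IL-1β out, overlapped by a single control (32.97, 22.5, 27.5 and 24.6 CPM against 33.3, 31.6, 36.4 and 39.5 CPM). The alarmin gene Il33, made by stromal and epithelial cells, stood lower (-0.27 ± 0.12). Genes induced through NF-kB had 13 of 21 members higher and a median of 0.02. Of these, 0 were separated upward and 1 downward (Lcn2, given above), against 3.65% and 1.36% of all tested genes. Among chemokine genes the receptor gene Cxcr4 was separated upward (64.1 to 86.96 and 96.5 to 127 CPM) and the epithelial and stromal chemokine gene Cxcl14 downward, at 254, 213, 233 and 248 CPM in the controls and 177, 171, 172 and 169 CPM after 5 weeks.

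Matrix genes stood lower after 5 weeks. Elastin gives the alveolar wall and the vessels their recoil, is laid down mostly in growing lung, and is crosslinked by lysyl oxidase on a scaffold of fibrillin. Eln (ENSMUSG00000029675, chromosome 5, 134731447 to 134776177) lay at 116, 146, 143 and 104 CPM in the controls and 91.1, 83.3, 44.7 and 64.5 CPM after 5 weeks. Every treated library was below every control, and 5-week replicate 3 was the lowest. The log2 difference was -0.87 ± 0.18 (SE; limma adjusted p = 0.245), and the 2-week libraries lay at 138 to 154 CPM, near or above the controls. The difference between 5 and 2 weeks was -1.06 ± 0.18 (limma adjusted p = 0.276).

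Lox, the lysyl oxidase gene (ENSMUSG00000024529, chromosome 18, 52649139 to 52662939), lay at 64.1, 70.5, 66.4 and 90.3 CPM in the controls and 49.1, 49.5, 44.3 and 46.5 CPM after 5 weeks, a tight group below all controls. The 2-week libraries, at 51.3 to 71.4 CPM, lay above the 5-week ones and overlapped the controls. Fbn1, the fibrillin gene, lay at 87.6, 111, 79.6 and 80.9 CPM and 76.8, 77.2, 47.7 and 67.9 CPM, and Sparc, a collagen-binding matrix protein gene, at 1959 to 2181 and 1539.9 to 1906 CPM. Fbn1 lies outside the rule for named genes and was chosen after its values were seen. These 4 were the separated members of 31 elastic fibre and assembly genes, against 1.36% of all genes separated downward. Of the list 22 were lower, with a median of -0.20. Without the 3 libraries that stand apart the median was -0.05, with 5 members separated downward and 2 upward, against 2.9% and 8.86% of all genes in that setting. Mfap4, a microfibril protein gene, went the other way, at 515, 468, 599 and 455 CPM in the controls and 851, 839.6, 607 and 557 CPM after 5 weeks, with slight overlap.

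Collagen chain genes stood lower as a list, with a median of -0.29, or -0.12 without the 3 libraries. Of the 25 members 22 were lower and 1 separated downward, against 1.36% of all tested genes. Col3a1, a fibrillar chain of vessels and alveolar walls, lay at 477, 726, 446 and 380.1 CPM in the controls and 349, 465, 246 and 262 CPM after 5 weeks. Col6a1, the separated member and a chain of beaded microfibrils, lay at 324, 282, 302 and 282 CPM and 261, 281, 183 and 230.1 CPM. In both, 5-week replicate 3 was lowest and the replicate 2 library of the treated group touched or neared the controls. Col4a2, of basement membrane, differed by -0.34 ± 0.13 and Col1a2 by -0.32 ± 0.13 (log2, SE).

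TGF-beta drives matrix synthesis in fibroblasts. Of 25 genes of its signalling and targets 21 were lower, and the list level, 6.33 to 6.45 in the controls and 5.98 to 6.31 after 5 weeks, was separated, with a median of -0.16, or -0.08 without 5-week replicate 3. Among the 25 genes 1 was separated downward and 1 upward, against 1.36% and 3.65% of all tested genes. Ltbp3, which encodes a latent TGF-beta binding protein, was the member separated downward (204 to 221 and 132 to 194 CPM). Inhba, the activin A subunit gene, lay at 3.54, 10.7, 3.59 and 4.39 CPM in the controls and 1.81, 3.91, 1.62 and 2.87 CPM after 5 weeks. Itgb6, the epithelial integrin subunit that activates latent TGF-beta, was the member separated upward, at 21.9, 16.95, 23.2 and 20.2 CPM and 26.2, 24.7, 32.4 and 28.9 CPM. The 2-week libraries of Itgb6 lay at 30.6 to 36.5 CPM.

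Fibroblast marker genes split. Tcf21, a transcription factor gene of lung fibroblasts with lipid droplets, lay at 96.7, 119, 139 and 116 CPM in the controls and 158, 153, 154 and 139 CPM after 5 weeks, just separated. Fgfr4, a growth factor receptor gene, lay at 28.7, 30.2, 33.4 and 34.8 CPM and 52.6, 46.02, 36.2 and 48.04 CPM, also separated. Wnt2 (0.38 ± 0.12) and Inmt (0.32 ± 0.13), both of alveolar fibroblasts, stood higher with overlap. Over the 24 genes 15 were lower and the median was -0.15, or -0.01 without control replicate 2 and -0.05 without the 3 libraries. The list holds 5 collagen chains. Timp3, a matrix-bound protease inhibitor gene, was separated downward, at 1618 to 2121 and 1082 to 1549 CPM, and the macrophage elastase gene Mmp12 stood at 0.53 ± 0.17 with overlap.

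**Figure D3:**
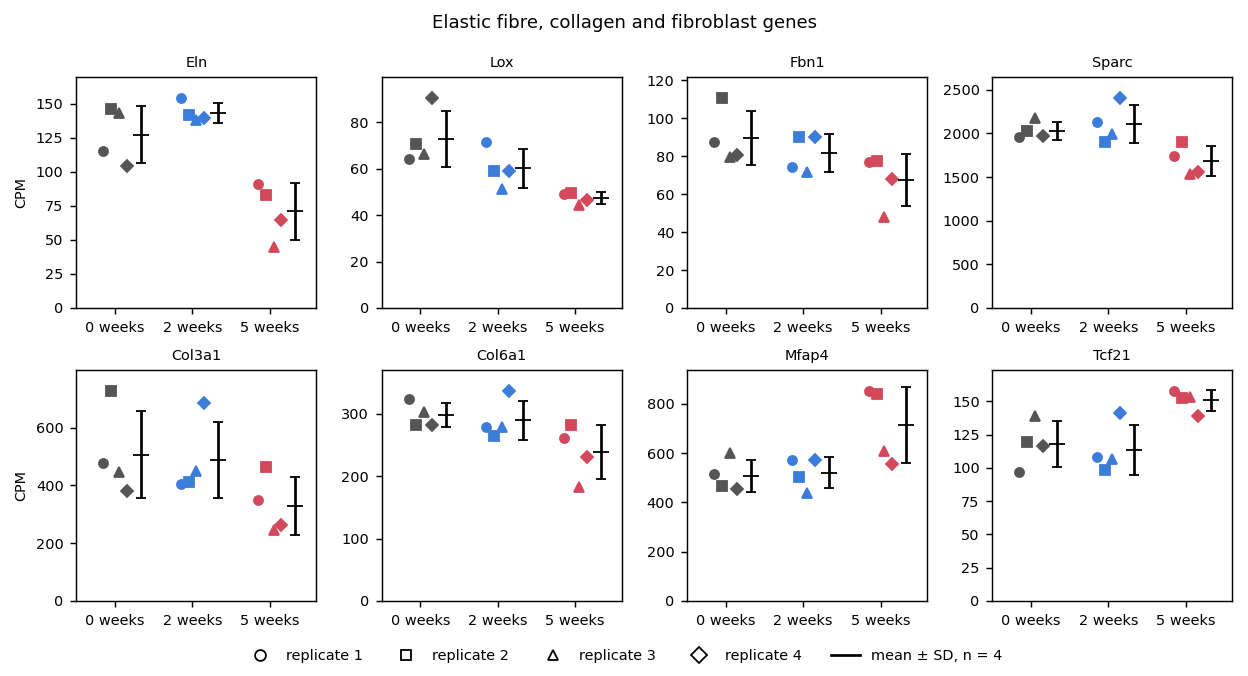
Each panel gives the CPM of 1 gene (y axis, from 0) in each library at 0, 2 and 5 weeks (x axis), with the mean ± SD of 4 mice. Eln, Lox, Fbn1, Sparc and Col6a1 lie below all controls at 5 weeks and Tcf21 above, while Col3a1 and Mfap4 overlap, and 5-week replicate 3 (triangle) is the lowest treated library for Eln, Lox, Fbn1, Sparc, Col3a1 and Col6a1.

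In the vessel wall, contractile genes differed little. Of 21 smooth muscle genes 17 were lower and 2 separated downward (against 1.36% of all tested genes), with a median of -0.13. Myocd, which encodes the coactivator myocardin that switches on contractile genes, lay at 3.15, 3.96, 3.89 and 5.43 CPM in the controls and 2.42, 2.80, 2.06 and 2.05 CPM after 5 weeks. The cytoskeletal gene Smtn lay at 80.1 to 94.5 and 57.3 to 79.6 CPM. Acta2, the actin gene of smooth muscle, overlapped (274, 233, 289 and 251 CPM against 243, 275, 231 and 226 CPM). It was chosen after its values were seen, as was its 2-week range of 313 to 391 CPM, above both. Cardiomyocyte genes, from the muscle sleeves of pulmonary veins, had 16 of 20 members lower and 0 separated.

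Endothelial lists lay close to the median of all genes, at -0.04 for general capillary, 0.09 for aerocyte, 0.01 for arterial and -0.09 for venous genes. The venous list level was nonetheless separated, 5.89 to 6.01 in the controls and 5.76 to 5.88 after 5 weeks, and Eln is one of its members. Ackr3, the scavenging receptor for CXCL12, lay at 54.7, 72.1, 76.1 and 70.7 CPM in the controls and 50.3, 54.7, 38.9 and 52.8 CPM after 5 weeks. Ephb4, the venous ephrin receptor gene, lay at 200.2 to 218 and 159 to 190 CPM. Both were separated, Ackr3 by a very small step.

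Genes of the nitric oxide and cGMP pathway, the target of L-NAME, had 12 of 27 members higher, 15 lower and none separated, with a median of -0.03. Nos3, endothelial nitric oxide synthase, lay at 30.1, 34.5, 36.5 and 35.6 CPM in the controls and 32.5, 29.8, 19.4 and 25.9 CPM after 5 weeks, a log2 difference of -0.36 ± 0.15. The overlap came from 5-week replicate 1. Slc7a1, a carrier of arginine, differed by -0.32 ± 0.12, and Npr3, the clearance receptor of natriuretic peptides, by -0.74 ± 0.28. Of the endothelin and angiotensin genes Agt, the angiotensinogen gene, was separated at a low level, 1.44, 6.78, 1.32 and 1.07 CPM against 0.884, 0.574, 0.437 and 0.615 CPM. The BMP pathway and pulmonary hypertension genes had a median of -0.05, with 0 of 30 separated, and Bmpr2, the receptor gene mutated in heritable disease, stood at -0.01 ± 0.10.

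Metallothioneins bind zinc and copper, and their genes answer to metals and to glucocorticoids. Metal response elements, which MTF1 binds, have the core TGCRCNC, where R is A or G. The pattern searched here, TGCNCNC, is looser, as it allows any base at that place. On either strand the looser pattern occurs in 44.41% of the RefSeq windows, and 5 or more times in 0.34%. The window of Mt2 (GRCm38.p6, chr8:94172368-94172617, plus strand) holds 5 matches and that of Mt1 (chr8:94178839-94179088, plus strand) holds 1, in capitals below, 5′ to 3′. The Mt2 matches GGGAGCA and TGCTCTC do not have the stricter core on either strand. They are shown because both genes stood lower after 5 weeks, and the matches are letters and no evidence of binding. Each window ends at an annotated start, and bases past it were not searched. The matches are therefore no full count of such elements in either gene.
Mt1: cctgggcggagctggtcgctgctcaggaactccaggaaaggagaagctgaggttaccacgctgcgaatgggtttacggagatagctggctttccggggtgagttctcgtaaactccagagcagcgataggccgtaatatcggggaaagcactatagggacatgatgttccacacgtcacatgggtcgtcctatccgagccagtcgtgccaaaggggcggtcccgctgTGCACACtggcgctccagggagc
Mt2: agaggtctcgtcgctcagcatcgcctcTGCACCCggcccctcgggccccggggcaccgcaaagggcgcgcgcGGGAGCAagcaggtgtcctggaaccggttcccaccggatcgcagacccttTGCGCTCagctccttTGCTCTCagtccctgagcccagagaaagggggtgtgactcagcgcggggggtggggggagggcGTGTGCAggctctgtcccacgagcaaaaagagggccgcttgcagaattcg

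Mt2 lay at 18.6, 17.6, 18.5 and 13.3 CPM in the controls and 6.80, 8.65, 9.27 and 11.7 CPM after 5 weeks, separated, with a log2 difference of -0.84 ± 0.15 (SE; limma adjusted p = 0.215). Mt1 lay at 76.2, 75.3, 75.7 and 53.3 CPM and 39.8, 47.5, 57.3 and 50.6 CPM, overlapping through control replicate 4. The 2-week libraries lay at 10.3 to 14.2 CPM for Mt2 and 51.1 to 68.997 CPM for Mt1, overlapping both groups.

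Glucocorticoids bind a nuclear receptor that raises a well-known set of genes in the lung. Of 21 such genes, Mt1 and Mt2 among them, 14 were lower and 6 separated downward, against 1.36% of all genes, with a median of -0.23. Without the 3 libraries the median was -0.05, with 8 members separated downward and 1 upward, against 2.9% and 8.86% of all genes in that setting. Fkbp5, a cochaperone that restrains the receptor (ENSMUSG00000024222, chromosome 17, 28618068 to 28736501), lay at 71.9, 106, 68.4 and 48.9 CPM in the controls and 34.8, 40.5, 25.7 and 34.3 CPM after 5 weeks. The stress kinase gene Map3k6 lay at 72.9, 80.2, 67.5 and 73.4 CPM and 44.8, 46.1, 28.5 and 45.4 CPM. Hif3a, a hypoxia factor gene that glucocorticoids induce, lay at 5.51 to 7.50 and 1.87 to 4.34 CPM. These 3 were separated, and each had a 2-week mean below its 5-week mean, with the 2-week libraries of Fkbp5 at 21.4 to 39.5 CPM. Other members were not lower. Tsc22d3, the GILZ gene, stood at 0.03 ± 0.18, and Dusp1, a phosphatase gene that is also an immediate early gene, at 0.48 ± 0.22.

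Immediate early genes, which respond within minutes to stimulation or to handling of tissue, were divided. Of 27 members 20 were higher, with 4 separated upward and 2 downward (against 3.65% and 1.36% of all tested genes). The median was 0.20, or 0.47 without the 3 libraries. Fos lay at 130, 53.02, 156 and 143 CPM in the controls and 302, 220.5, 207 and 285 CPM after 5 weeks, Fosb at 8.23 to 10.7 and 13.02 to 26.3 CPM, and Ccn1, a matricellular protein gene, at 193 to 345 and 372 to 579 CPM. Maff, a basic leucine zipper factor gene, lay at 43.7, 47.2, 57.98 and 62.6 CPM and 39.5, 39.95, 30.6 and 43.2 CPM, the opposite direction, shared with Nr4a3. The part of the time from death to freezing in these genes was not tested.

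**Figure D4:**
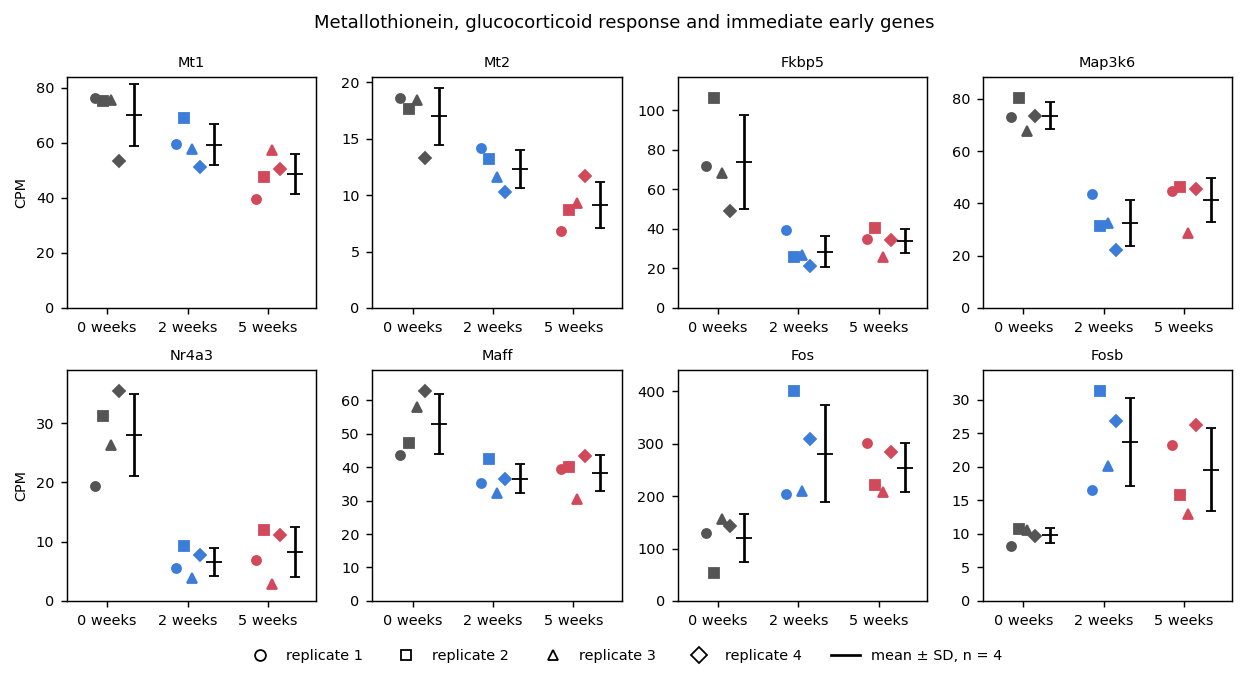
Each panel gives the CPM of 1 gene (y axis, from 0) in each library at 0, 2 and 5 weeks (x axis), with the mean ± SD of 4 mice. Mt2, Fkbp5, Map3k6, Nr4a3 and Maff lie below all controls at 5 weeks and Fos and Fosb above, while Mt1 overlaps.

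Epithelial lists were near the median of all genes, at -0.01 for alveolar type 1 and 0.05 for type 2 cells. Within the type 2 list, Lyz2, a lysozyme gene also made by macrophages, lay at 5472, 4673, 3842 and 5007 CPM in the controls and 5943, 6018, 8130.5 and 6331 CPM after 5 weeks. Napsa, the protease that processes surfactant protein B, lay at 321, 307, 285 and 306 CPM and 358, 345, 396 and 359 CPM. Both were separated upward, while Slc26a4 and Lcn2, given above, were the 2 members of that list separated downward. Over all tested genes 3.65% were separated upward and 1.36% downward. Airway secretory genes had 17 of 20 members lower, with a median of -0.20, or -0.13 without 5-week replicate 4. Muc5b, the main gel-forming mucin gene of mouse airways, was the separated member, at 51.6, 59.5, 55.3 and 68.5 CPM in the controls and 15.3, 45.8, 34.1 and 21.2 CPM after 5 weeks, a spread of its own among the treated mice. Ciliated cell genes had a median of 0.01 with 0 of 20 separated.

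In lipid metabolism, sterol and fatty acid synthesis genes stood on opposite sides. Of 22 cholesterol synthesis genes 21 were higher and 1 separated upward (against 3.65% of all tested genes), with a median of 0.12. Without the 3 libraries 11 were separated upward, against 8.86% of all genes in that setting, and the median was 0.25. Fdps, which makes farnesyl diphosphate, lay at 27.97, 31.6, 25.99 and 25.9 CPM in the controls and 38.1, 34.8, 37.1 and 31.9 CPM after 5 weeks, and Idi1, an earlier step, differed by 0.39 ± 0.11. Fatty acid synthesis genes had 17 of 19 members lower and a median of -0.41, which was -0.06 without control replicate 2, the library with adipocyte transcripts, and -0.04 without the 3 libraries. Scd1, a desaturase of both adipocytes and type 2 cells, lay at 1899.5, 5839.7, 819.7 and 1563 CPM in the controls and 1046, 955, 990 and 923 CPM after 5 weeks. Control replicate 3 lay below all treated libraries, and the part of adipose tissue in Scd1 was not tested. The PPAR target and fatty acid oxidation genes had a median of 0.04.

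Mitochondrially encoded genes had 13 of 15 members lower and a median of -0.20, whereas the 34 nuclear genes of oxidative phosphorylation had 27 higher and a median of 0.04. The complex I gene mt-Nd4 lay at 4108, 3868, 4038 and 3515 CPM in the controls and 3328, 3282, 2674 and 3331 CPM after 5 weeks, separated. Gclc, the rate-limiting enzyme of glutathione synthesis, was the separated member of the antioxidant list, at 193, 172, 152 and 196 CPM and 137, 145, 119 and 143 CPM. Ribosomal protein genes had 39 of 45 members higher and a median of 0.15. Leaving out 5-week replicate 3 gave -0.01, and leaving out the 3 libraries 0.00. Cell cycle genes had a median of 0.13, or 0.03 without 5-week replicate 3, and 0 separated members.

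Across the 66 lists, the mean level separated the groups in 9, 5 higher and 4 lower. Under median-of-ratios scaling the level was higher in 4 and lower in 7 lists, and under quantile normalization in 5 and 6. As reported, the level was higher in NK cell, nonclassical monocyte, MHC class I, MHC class II and unfolded protein response genes, and lower in venous endothelial, TGF-beta, glycolysis and hypoxia, and endothelin and renin-angiotensin genes. The differences of the last pair, -0.11 and -0.13, and that of the unfolded protein response, 0.07, were small (mean log2(CPM + 1)). The lists were drawn up with earlier results of these data known, so their direction is a description of these 8 libraries.

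**Figure D5:**
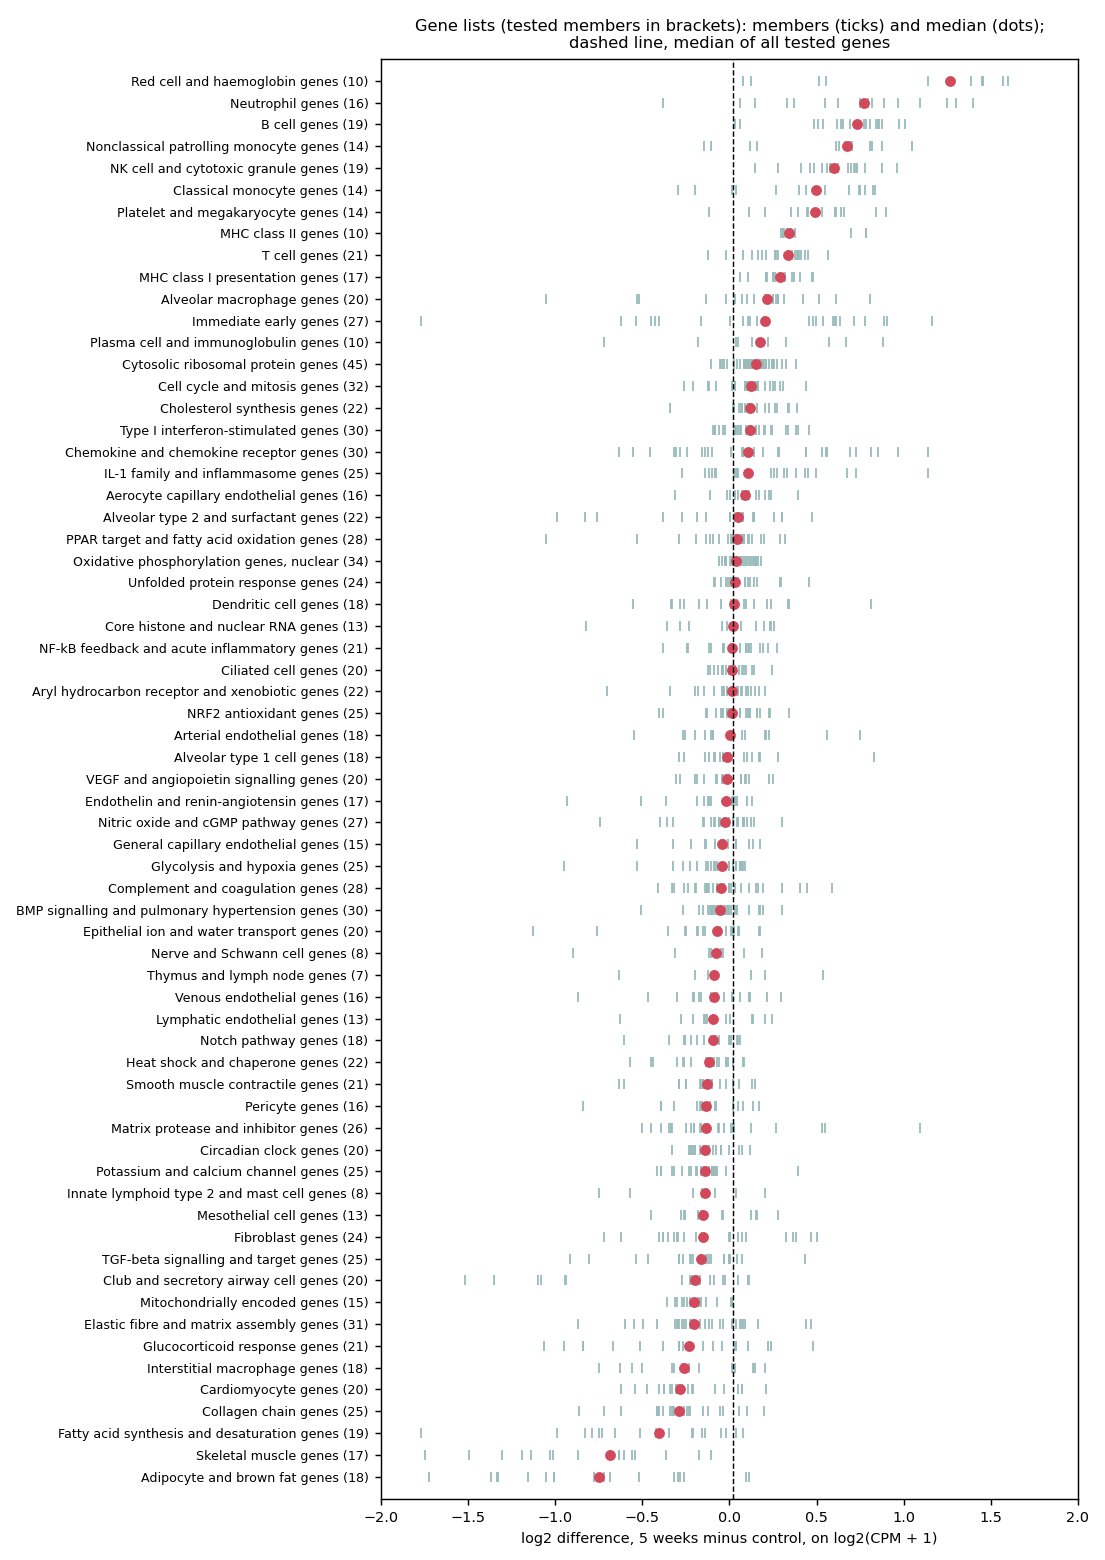
Each row is 1 of the 65 lists with at least 5 tested members, with ticks for the log2 difference of each member between 5 weeks and control (x axis, on log2(CPM + 1)) and a dot for the median. Blood and immune lists lead at the top, skeletal muscle, adipocyte and fatty acid synthesis lists, all of them high in control replicate 2, are at the foot, and the dashed line is the median of all tested genes, 0.02.

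The 2-week libraries place these differences in time without a test of the course, since both treated groups share the same controls. In limma, 0 of 15562 genes passed between 5 and 2 weeks (1696 at an unadjusted p under 0.05, lowest adjusted p 0.276). Of the 568 genes separated upward from the controls at 5 weeks, 103 were also separated upward at 2 weeks. Of the 211 separated downward, 65 were also separated downward at 2 weeks. The genes that follow are examples and do not show how common either course was. For Hes2, Igfbp2 and Slc26a4 the log2 difference between 5 and 2 weeks was 0.12 ± 0.14, 0.17 ± 0.15 and 0.09 ± 0.14 (SE). For S1pr5, Nkg7 and Fcgr4 it was 0.93 ± 0.21, 0.85 ± 0.19 and 1.19 ± 0.23, and for Meg3 -0.78 ± 0.17. In the first 3 genes the 2-week libraries thus lay near the 5-week ones, at 4.97 to 6.01, 302 to 402 and 1.25 to 1.79 CPM. In the latter 4 they lay near the controls, at 2.15 to 5.08, 4.89 to 9.43, 2.70 to 7.11 and 5.51 to 8.39 CPM.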

How the data were processed

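The deposited bulk RNA-seq file holds CPM values, each with 0.0001 added, and TopHat2, Partek and mm10 are named in the submitters' processing notes. The sources used here give no versions, annotation, strand or filters. Gene positions come from the deposited table, whose build is not named in it. Low CPM values fell within 0.1 of a whole multiple of a library's step in 87.8% to 88.5% of cases, which gave the depth but not whole reads for nearly all genes, so no count test was run. Genes averaging 1 CPM or more over the 12 libraries (15562 of 23127) were fitted on log2(CPM + 1) with limma 3.58.1 in R 4.3.3, using 3 group means for the 12 libraries and a variance trend. P-values are two-sided, moderated and adjusted by Benjamini-Hochberg at 0.05. The fit was tested on simulated data with the same spread between mice for every gene and no library standing apart. That test does not measure the power of the fit in these data. Libraries are separate mice, numbered in accession order within a group. The precision is set by 4 mice a group. A list's level is the mean log2(CPM + 1) of its tested members.

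Named are Il1b, the 15 genes per direction with the smallest p among separated groups (as fewer than 10 passed), up to 5 members per list with the smallest p and up to 3 with the highest mean, and the markers of a tissue or cell type that was checked. Predicted genes are counted only. The members and lists were chosen with earlier results of these data known. Older symbols were matched through RefSeq synonyms. Alternatives were pseudocounts of 0.1 and 5, no filter or 10 CPM, median-of-ratios and quantile scaling, a fit of the 8 libraries, library weights, robust moderation and leaving out each library. The sets without the libraries that stand apart were chosen after seeing the data. Genes with near-identical copies and overlapping or antisense genes are uncertain individually. The single-cell experiment of the series was not analysed here. Some genes that the rule names are not reported here.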

Additional observations from a re-analysis of the deposited data

Results flagged for a closer look

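In 28 of 332 groups of 4 libraries (120 genes and 46 list levels, in the controls and in the 5-week group), 1 library stood away from the other 3 by more than Dixon's 95% critical value. Chance flags about 1 in 20 groups, and genes of 1 cell type are not independent. Of these, 16 concern 5-week replicate 3 and 6 control replicate 2.

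In 5-week replicate 3, B cell genes stood high: Cd79a at 121 CPM (others 51.3 to 59.1), Ighm at 279 CPM (145 to 157), H2-Oa at 14.7 CPM (7.45 to 7.998) and H2-Ob at 55.7 CPM (26.3 to 28.7). Also high in this library were the neutrophil gene Cd177 at 9.43 CPM (5.67 to 6.12) and the platelet gene Ppbp at 25.2 CPM (11.8 to 12.2). The NK granule gene Gzma, at 48.99 CPM (24.2 to 27.7), and the immunoproteasome gene Psmb10, at 84.4 CPM (70.3 to 71.2), were high in this library too. Its list levels were high for B cell genes (5.28, others 4.51 to 4.55), ribosomal protein genes (7.28, others 6.58 to 6.68) and nuclear oxidative phosphorylation genes (6.65, others 6.13 to 6.21). The BMP list stood low there, at 6.43 against 6.55 to 6.56, as did Meg3 (2.75 CPM, others 3.84 to 4.06), Ephb4 (159 CPM, others 186 to 190.0), Map3k6 (28.5 CPM, others 44.8 to 46.1) and mt-Nd4 (2674 CPM, others 3282 to 3331).

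In control replicate 2, Jchain stood at 169 CPM (others 2.30 to 4.70), Ighm at 1049 CPM (78.7 to 111), Inhba at 10.7 CPM (3.54 to 4.39) and Agt at 6.78 CPM (1.07 to 1.44). The skeletal muscle list stood at 4.74 (others 1.08 to 1.29) and the PPAR target list at 6.35 (5.79 to 5.81).

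Elsewhere, control replicate 1 was high for Retnlg (11.96 CPM, others 3.39 to 4.61) and for neutrophil genes (3.75, others 2.98 to 3.10). Control replicate 3 was low for Il18rap (3.78 CPM, others 6.17 to 6.46). Control replicate 4 was high for Timp3 (2121 CPM, others 1618 to 1647) and low for Mt1 (53.3 CPM, others 75.3 to 76.2). The 5-week replicate 1 was high for Jchain, at 9.10 CPM against 4.84 to 5.24 CPM. What sets these libraries apart was not tested.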

How the results depend on the processing

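No gene passed in the fit as reported or in 18 of its 19 alternatives. Without control replicate 1, 1 gene passed, Hes2 (log2 difference 1.06, limma adjusted p = 0.0436), and over the fits that leave out 1 library the count lay between 0 and 1. Genes at an unadjusted p under 0.05 numbered 1343, 880 with a filter of 10 CPM, which tests 10803 genes, 885 without the 3 libraries that stand apart, and 904 to 1518 when 1 library was left out. Genes with separated groups numbered 779, 492 with a filter of 10 CPM, 1113 to 1435 when 1 library was left out, and 1831 without the 3 libraries or without only control replicate 2 and 5-week replicate 3, since fewer libraries separate more easily. Lists with a separated level numbered 9, 4 with a filter of 10 CPM, 9 to 16 when 1 library was left out, and 14 without the 3 libraries or without control replicate 2 and 5-week replicate 3. The Il1b difference of 1.14 lay between 0.95 and 1.45 when 1 library was left out, the highest without 5-week replicate 2, and was 0.83 without control replicate 2 and 5-week replicate 3 (exact permutation p 0.2). Its exact permutation p when 1 library was left out lay between 0.0286 and 0.114. Of 1231 alternative list medians 1199 moved by less than the spread between replicates and 32 moved further. No paired analysis was possible because the replicate numbers were given in accession order and each mouse number occurs once. With 4 mice a group, an exact permutation test cannot go below 0.0286.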
